A study of Mus musculus with 24 samples.

Results

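Libraries labelled as CD4 T cells of wild type (WT) donor mice were compared after and before allogeneic transplantation. The members were the 3 libraries labelled as WT CD4 at day 7 post-transplant (post-tx) and the 3 labelled as WT CD4 pre-transplant (pre-tx), 6 of the 24 libraries of the series, which held 3 libraries in each of 8 groups (WT and Cat-Tg donors, CD4 and CD8 cells, pre-tx and post-tx). Donors were C57BL/6 mice, unmodified for WT, while Cat-Tg donors carried a transgene that overexpresses human beta-catenin. For the post-tx samples, magnetically enriched donor CD4 and CD8 T cells were given together with T cell-depleted WT bone marrow to lethally irradiated BALB/c mice, and donor cells, recognised by H-2Kb, were sorted from the recipients' spleens. The pre-tx samples came from fresh splenocytes of donor mice that had no transplant. The 2 groups therefore differed in host, irradiation of that host, cotransferred cells, time and purification as well as in activation, and these cannot be told apart here. Mice were adult and matched for age and sex by the study's methods, yet Y-linked transcripts differed between CD4 groups, as given below. RNA was amplified from sorted cells with a full-length, poly(A)-primed kit, so that levels are relative to the RNA of whatever cells each sort contained.

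In graft-versus-host disease, donor T cells meet foreign MHC molecules on host tissue, divide, leave the naive state and acquire the capacity to migrate and to damage the host. CD4 T cells recognise peptide on MHC class II through the T cell receptor (TCR) and the coreceptor CD4, need costimulation through CD28 family members, and then secrete cytokines and chemokines that recruit and arm other cells. The spleen, from which both groups were sorted, also holds CD8 T cells, B cells, plasma cells, NK cells, macrophages, dendritic cells and erythroid precursors, whose transcripts can enter a T cell library.

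The estimated counts summed to 17103414 to 19691809 per WT pre-tx library and 27109156 to 49486745 per WT post-tx library, against 11135713 to 50519825 over the series. Of 17253 genes tested in one edgeR fit of the 12 CD4 libraries, 1719 passed both an adjusted p of 0.05 and a log2 fold change (post-tx over pre-tx) of 2 in either direction, which was 9.96% of the genes tested. Of these differentially expressed genes (DEGs), 731 were higher post-tx (4.24%) and 988 were lower (5.73%). By the adjusted p alone, the rule used for the gene lists below, 2542 genes were higher (14.7%) and 1661 were lower (9.63%). The count by adjusted p fell without any 1 WT library, most without post-tx replicate 3, from 4203 to 2542. It was 2853, 4146 and 2805 without WT pre-tx replicates 1, 2 and 3. Without WT post-tx replicates 1 and 2 it was 3099 and 3629. The median log2 fold change over all genes tested was -0.135. Levels are given as CPM, counts relative to a common library total, after trimmed mean of M values (TMM) scaling. Spearman correlations over genes ran from 0.899 to 0.931 within the WT pre-tx group, from 0.953 to 0.962 within the WT post-tx group and from 0.781 to 0.878 between them.

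The coreceptors showed that the 2 groups of libraries did not have the same makeup. Cd4, the MHC class II coreceptor, stood at 73.0, 148 and 77.7 CPM in the 3 WT pre-tx libraries and at 1115, 977 and 1141 CPM in the 3 WT post-tx libraries. Cd8a, the MHC class I coreceptor chain that CD4 T cells lack, stood at 138, 163 and 144 CPM pre-tx and at 4.55, 6.24 and 1.02 CPM post-tx. Every pre-tx library thus held more Cd8a than Cd4 by count, with a Cd4 to Cd8a ratio of 0.528 to 0.907, whereas the ratio was 157 to 1120 post-tx. The log2 fold change was 3.44 ± 0.30 (SE, n = 3 per group, adjusted p = 1.21e-06) for Cd4 and -5.24 ± 0.59 (adjusted p = 1.46e-05) for Cd8a. Cd8b1, the partner chain of Cd8a, fell with it by 3.69 ± 0.39 on the log2 scale (adjusted p = 7.40e-06), from 272, 318 and 269 CPM to 15.5, 31.5 and 19.6 CPM.

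The pre-tx libraries labelled WT CD4 and WT CD8 overlapped in Cd4 and Cd8a but not in Cd8b1. In CPM without TMM scaling, Cd4 ran from 68.7 to 151 CPM in the WT CD4 pre-tx libraries and from 106 to 143 CPM in the WT CD8 pre-tx libraries, and Cd8a from 130 to 166 CPM and from 131 to 200 CPM. Cd8b1 ran from 256 to 325 CPM in the WT CD4 and from 329 to 394 CPM in the WT CD8 pre-tx libraries. Post-tx, the labels and the coreceptors went together, with Cd8a at 308 to 421 CPM and Cd4 at 0.799 to 3.25 CPM in the WT CD8 libraries. The label of the 3 WT pre-tx CD4 libraries was therefore not borne out by their coreceptors, and they are called by that label throughout. All 3 libraries shared this content, so that no pre-tx library could be left out on its account. In bulk libraries, fewer cells of a type and less RNA per cell cannot be told apart.

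**Figure D1:**
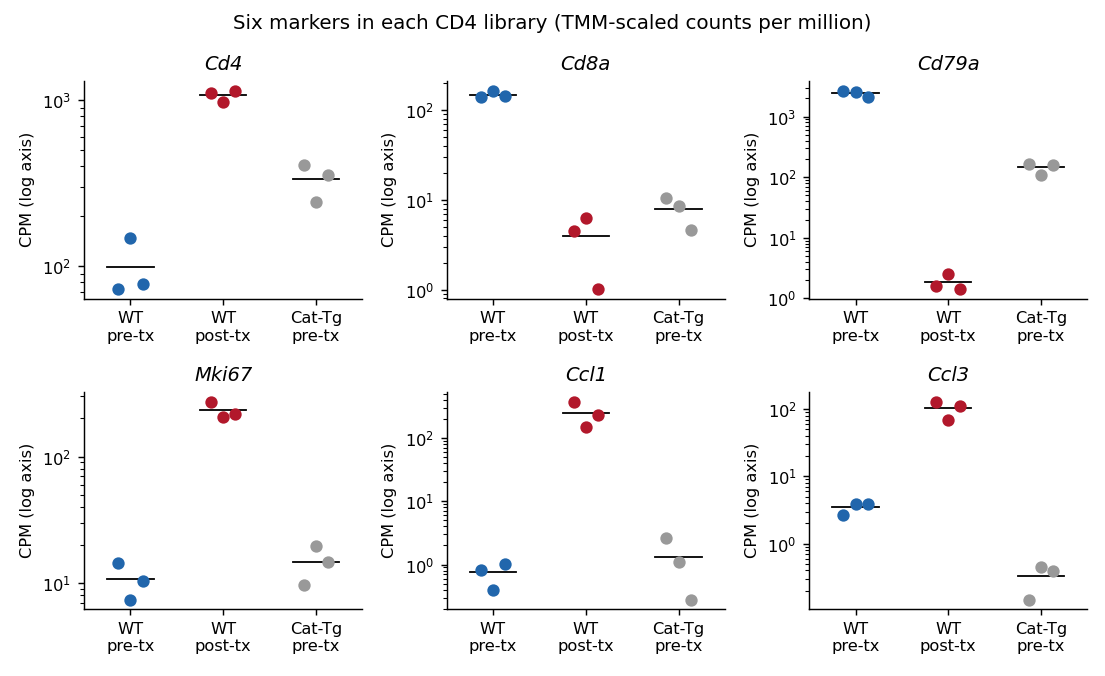
CPM (TMM-scaled, log axes) of Cd4, Cd8a, Cd79a, Mki67, Ccl1 and Ccl3 in each WT pre-tx, WT post-tx and Cat-Tg pre-tx CD4 library, with a point per library and a line at the mean of 3. WT pre-tx and post-tx points are apart for every one of these genes. The Cat-Tg pre-tx means lie between theirs for all but Ccl3, though close to WT pre-tx for Mki67 and Ccl1.

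To place each gain, 2 further scales were used beside TMM. In the first, libraries were scaled to the geometric mean of 6 TCR signalling genes (Cd3d, Cd3e, Cd3g, Cd247, Lck and Zap70), so that a value is read per unit of T cell transcript. This moved the median of all genes by -1.54 on the log2 scale, to -1.68, and left 337 genes higher (1.95%) and 9909 lower (57.4%), with 144 and 5977 among DEGs. In the second, chosen after seeing the data, the WT post-tx libraries were set against the Cat-Tg pre-tx CD4 libraries, which had a Cd4 to Cd8a ratio of 28.5 to 77.5. That comparison crosses genotype and shares the post-tx libraries with the main one, and its pre-tx donors differed in Y-linked transcripts (Eif2s3y averaged 72.3 CPM in Cat-Tg pre-tx and was under 1 CPM in every WT CD4 library). It called 2001 genes higher (11.6%) and 1981 lower (11.5%).

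The B cell list had the lowest median of the lists. All 24 genes of the B cell list were lower post-tx, with a median log2 fold change of -6.57, and the pre-tx and post-tx values overlapped for none of them, where 9.63% of all genes tested were lower and 19.3% had post-tx values entirely below the pre-tx ones. Cd79a, a signalling chain of the B cell receptor, stood at 2656, 2507 and 2112 CPM pre-tx and at 1.57, 2.54 and 1.44 CPM post-tx. Its log2 fold change was -10.37 ± 0.50 (adjusted p = 4.03e-09). The IgM Fc receptor Fcmr (-11.32), Ly6d (-11.08), Cd79a, the kinase Blk (-9.32), Cd79b (-8.72), Il4i1 (-8.53) and Mzb1 (-8.38) were among the 8 lowest protein-coding DEGs above the level set for naming, and most of these belong to B lineage cells. The summed level of the list fell from 21563 to 24964 CPM in the pre-tx libraries to 1053 to 1161 CPM post-tx, and was 4334 to 6141 CPM in the Cat-Tg pre-tx libraries. Against those, 19 of 24 were still lower, with a median of -3.40.

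MHC class II genes and plasma cell genes moved in the same direction. All 11 MHC class II genes, which B cells and other antigen-presenting cells express, were lower, with a median of -5.70 and a summed level of 41368 to 58000 CPM pre-tx and 1120 to 1522 CPM post-tx. H2-Ab1, the beta chain of I-A, stood at 16370, 15110 and 11040 CPM pre-tx and at 212, 253 and 312 CPM post-tx. Ciita, the master transactivator of the class, stood at 408, 366 and 230 CPM against 5.26, 9.11 and 3.92 CPM. In neither gene did any post-tx library come near a pre-tx one. Of 7 plasma cell genes, 5 were lower, among them Jchain (-3.99 ± 0.46), the joining chain of secreted antibody, and Mzb1, while Prdm1 was higher (2.74 ± 0.56, adjusted p = 0.00226). Prdm1 encodes Blimp-1, which effector T cells also express.

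Erythroid and NK transcripts were lost as well, and myeloid ones in part. Of 10 erythroid genes measured, 8 were lower, with a median of -3.58, while 4 were lower against the Cat-Tg pre-tx libraries, with a median of -0.85. Alas2, the erythroid enzyme of heme synthesis, stood at 368, 217 and 139 CPM pre-tx and at 8.48, 9.24 and 3.92 CPM post-tx (-5.07 ± 0.54, adjusted p = 9.04e-06). Hba-a1 (-4.10 ± 0.75) and Hba-a2 (-4.16 ± 0.61) are alpha globin genes so alike that reads may be split between them, and Hba-a2 fell from 13110, 6339 and 4398 CPM to 356, 647 and 332 CPM. Of 10 NK cell genes, 6 were lower, including the natural cytotoxicity receptor gene Ncr1 (-4.40 ± 1.15). Klra8, a Ly49 receptor gene, was at 3.96, 5.43 and 4.92 CPM pre-tx and at 0 in all 3 post-tx libraries, so that it was at least 48.2-fold lower, set against a floor of 3 counts per library. Among the CD4 libraries Klra8 exceeded 1 CPM, the level needed for testing, only in the 3 WT pre-tx ones. It could thus be tested only because it was high there. Klrd1 and Klrk1, which activated T cells share with NK cells, had log2 fold changes of 1.5 (adjusted p = 0.107) and 1.05 (adjusted p = 0.175).

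Of 22 myeloid genes, 7 were lower, 1 was higher and 14 did not pass. The lysozyme gene Lyz2 stood at 3145, 2914 and 1688 CPM pre-tx and at 305, 140 and 143 CPM post-tx (-3.72 ± 0.38, adjusted p = 5.34e-06). Spi1 (-3.00 ± 0.29), which encodes PU.1 and is also active in B cells, fell as well. Vcam1, an adhesion molecule of stromal cells and splenic macrophages, rose, from 65.6, 78.0 and 90.5 CPM to 179, 313 and 422 CPM (1.96 ± 0.40), but was at -0.58 against the Cat-Tg pre-tx libraries. The complement gene C1qb, a macrophage marker, had 455, 215 and 306 CPM pre-tx and 188, 231 and 386 CPM post-tx, and the groups overlapped (adjusted p = 0.522). The myeloid sum was 5199 to 8244 CPM pre-tx and 1981 to 3048 CPM post-tx. Of 8 dendritic cell genes, 3 were lower (Siglech, Cd209a and Flt3), while the other 5 did not pass. Of 10 neutrophil genes, 2 were lower and 8 did not pass, but the median was 0.91 (-0.66 per unit of T cell transcript). Post-tx values lay entirely above the pre-tx ones for 3 of the 10, a share near the 24.7% of all genes. The summed level of the neutrophil list was 589 to 1145 CPM pre-tx and 782 to 1901 CPM post-tx. Its 2 most abundant members that did not pass were Ngp, with 143, 99.9 and 49.2 CPM pre-tx and 546, 245 and 254 CPM post-tx (1.84, adjusted p = 0.104), and S100a8, with 333, 318 and 219 CPM and 246, 163 and 232 CPM. The part of these cells in the gains reported below was not tested.

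**Figure D2:**
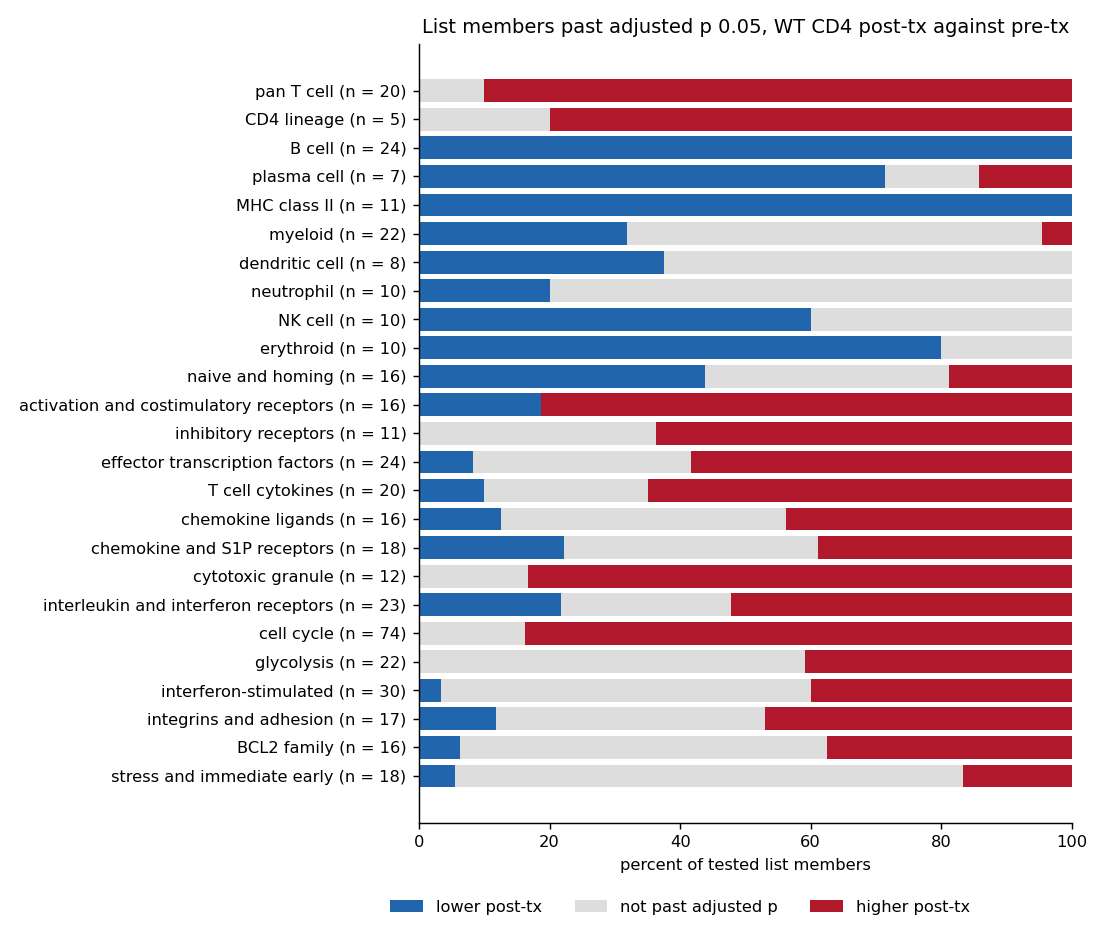
Percent of the tested members of each gene list that were lower, not past the test or higher in WT post-tx against pre-tx CD4 libraries (edgeR, adjusted p of at most 0.05, n is the number tested). All 24 B cell and 11 MHC class II genes are lower, and 62 of 74 cell cycle genes are higher.

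T cell transcripts made up a larger share of the post-tx libraries. Of 20 pan T cell genes, 18 were higher, with a median of 1.37 that turned to -0.21 when scaled to the 6 TCR signalling genes and to 0.02 against the Cat-Tg pre-tx libraries, where only 2 were higher and 6 were lower. Their summed level was 5123 to 6799 CPM pre-tx, 10882 to 14773 CPM post-tx and 15241 to 18657 CPM in Cat-Tg pre-tx libraries. Among the CD3 and TCR chains, the log2 fold changes were 2.31 for Cd3g, 1.71 for Cd247, 1.54 for Trac, 1.51 for Trbc1, 1.40 for Cd3d, 1.28 for Cd3e and 1.00 for Trbc2. Among TCR proximal signalling genes they were 2.28 for the adaptor Lcp2, 1.53 for the kinase Zap70, 1.5 for the adaptor Lat and 1.09 for the kinase Lck. Surface molecules Cd28 (3.54), Thy1 (1.35), Cd5 (1.12), Cd2 (1.05) and Cd6 (0.92) and the transcription factor gene Bcl11b (1.49) also passed. Ptprcap (-0.31) and Trat1 (-0.98) did not. Per unit of T cell transcript, Cd28 (2.03), Cd3g (0.76), Lcp2 (0.75) and Cd247 (0.15) had positive values and the other 14 had negative ones, from -0.01 for Trac to -0.64 for Cd6. Of the 20 genes, 6 define that scale, so that their average lies near 0 by construction, with single values from -0.46 (Lck) to 0.76 (Cd3g). Calls for Trbc2 (0.72), Cd5 (0.81) and Lat (1.22) were lost without WT pre-tx replicate 3. That of Cd6 was lost without any one of WT pre-tx replicates 1 and 3, WT post-tx replicates 1 and 3 and Cat-Tg pre-tx replicate 1, at 0.70 to 0.91. That of Bcl11b, at 8.87, 40.5 and 37.1 CPM pre-tx, was lost in 7 such fits, at 1.02 to 1.56.

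Of the 5 genes on a CD4 lineage list (Cd4, Cd40lg, Gata3, Tox and Zbtb7b), 4 were higher. The list median was 3.44 by TMM, 1.91 per unit of T cell transcript and 1.16 against the Cat-Tg pre-tx libraries. Cd40lg, the CD40 ligand through which helper T cells license B and dendritic cells, stood at 4.79, 8.77 and 9.17 CPM pre-tx and at 82.3, 116 and 121 CPM post-tx (3.81 ± 0.40, adjusted p = 8.21e-06). Gata3, a transcription factor of CD4 lineage choice and type 2 helper cells, stood at 26.1, 28.5 and 19.0 CPM and at 349, 308 and 335 CPM (3.75 ± 0.35, adjusted p = 2.54e-06). The post-tx values lay above all pre-tx values in both genes. Zbtb7b, which encodes the CD4 lineage factor ThPOK, had a log2 fold change of 0.83 (adjusted p = 0.0863), and of -0.74 per unit of T cell transcript.

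Of 16 genes of activation and costimulatory receptors, 13 were higher and 3 were lower, with a median of 2.48, of 0.90 per unit of T cell transcript and of 0.82 against the Cat-Tg pre-tx libraries, where 8 were higher, Ly6c2 among them. Icos, an inducible relative of CD28, stood at 6.80, 20.5 and 16.4 CPM pre-tx and at 246, 473 and 464 CPM post-tx (4.76 ± 0.53, adjusted p = 1.40e-05). Tnfrsf4, the gene of the costimulatory receptor OX40, stood at 36.4, 32.6 and 21.4 CPM and at 626, 366 and 454 CPM (4.0 ± 0.31, adjusted p = 4.08e-07). Il2ra, the high affinity chain of the IL-2 receptor, stood at 10.6, 7.62 and 7.58 CPM and at 122, 97.3 and 107 CPM (3.66 ± 0.32, adjusted p = 1.34e-06). In these 3 genes each post-tx library was more than any pre-tx library, and the Cat-Tg pre-tx means were intermediate, at 139 CPM for Icos, 160 CPM for Tnfrsf4 and 54.6 CPM for Il2ra. The 3 lower genes were Cd38 (-1.04), Ly6c1 (-0.86) and Ly6c2 (-0.69). The call of Cd38 was lost without WT post-tx replicate 1 (-0.95), that of Ly6c1 without WT pre-tx replicate 2 or WT post-tx replicate 1 or 3 (-0.84 to -0.62), and that of Ly6c2 in any fit without 1 of 5 WT libraries (-0.73 to -0.65).

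Inhibitory receptors, which restrain T cells after activation, were higher for 7 of 11 genes and lower for none, with a median of 1.76, of 0.22 per unit of T cell transcript and of 0.88 against the Cat-Tg pre-tx libraries. Pdcd1, which encodes PD-1, stood at 22.3, 21.7 and 22.5 CPM pre-tx and at 749, 550 and 656 CPM post-tx (4.88 ± 0.24, adjusted p = 4.38e-09). Tigit stood at 7.45, 5.53 and 9.88 CPM and at 179, 197 and 203 CPM (4.66 ± 0.34, adjusted p = 2.56e-07). Havcr2, the TIM-3 gene, stood at 6.80, 5.23 and 3.53 CPM and at 89.2, 102 and 95.6 CPM (4.20 ± 0.58, adjusted p = 9.54e-05). These 3 were also higher against the Cat-Tg pre-tx libraries, by 2.56 for Pdcd1, 2.91 for Tigit and 3.34 for Havcr2. Ctla4 behaved otherwise. It was higher against WT pre-tx (4.01 ± 0.39, adjusted p = 3.65e-06), from 3.31, 4.68 and 7.12 CPM to 65.0, 87.9 and 91.0 CPM, but averaged 87.7 CPM in the Cat-Tg pre-tx libraries (-0.11, adjusted p = 0.838).

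Transcription factors of effector differentiation were higher for 14 of 24 genes and lower for 2, where 14.7% and 9.63% of all genes tested were. The list median was 2.0, with 0.48 per unit of T cell transcript and 1.24 against the Cat-Tg pre-tx libraries, where 14 were higher. Bhlhe40, which promotes cytokine production in helper cells, stood at 42.9, 37.4 and 42.7 CPM pre-tx and at 739, 578 and 660 CPM post-tx (4.01 ± 0.27, adjusted p = 9.29e-08). Id2, a repressor of E proteins tied to effector cells, stood at 44.3, 63.5 and 50.4 CPM and at 471, 689 and 849 CPM (3.67 ± 0.28, adjusted p = 3.99e-07). Batf, an AP-1 partner of T cell activation, stood at 44.6, 35.1 and 29.4 CPM and at 394, 283 and 325 CPM (3.20 ± 0.29, adjusted p = 1.96e-06). All 3 had every post-tx library above every pre-tx one. Id3, the counterpart of Id2 in naive and memory cells, was lower, from 259, 341 and 235 CPM to 76.7, 52.1 and 63.7 CPM (-2.12 ± 0.38, adjusted p = 0.000979). Irf8, which B and myeloid cells express strongly, was also lower (-2.08 ± 0.29), but was at 0.75 against the Cat-Tg pre-tx libraries.

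**Figure D3:**
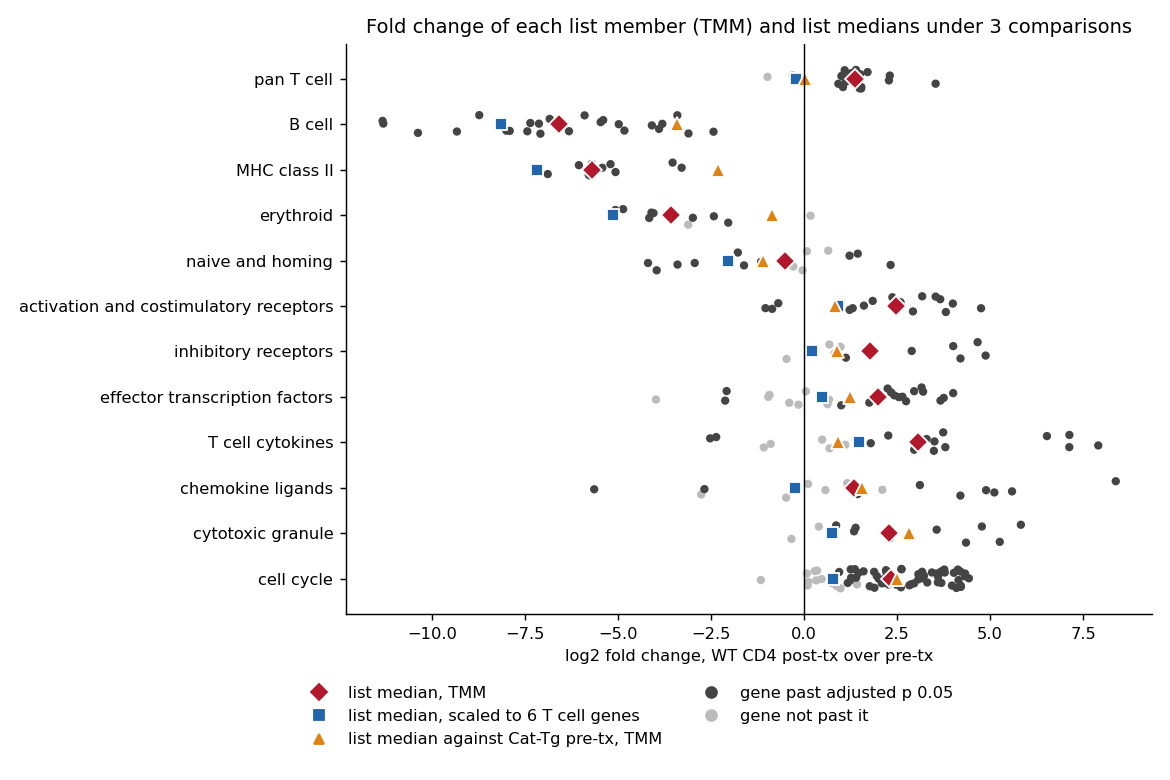
Log2 fold change of WT post-tx over pre-tx for each tested member of 12 lists (small points, dark where adjusted p was at most 0.05), with the list median by TMM (diamond), per unit of 6 TCR signalling genes (square) and against Cat-Tg pre-tx libraries (triangle). The pan T cell median is 1.37, -0.21 and 0.02 on these scales, while the cell cycle median is 2.35, 0.77 and 2.49.

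The naive and homing list went the other way for several members. Ccr7, the chemokine receptor that brings naive T cells into lymph nodes and splenic T zones, stood at 631, 846 and 567 CPM pre-tx and at 41.4, 33.1 and 37.3 CPM post-tx (-4.19 ± 0.25, adjusted p = 2.08e-08). The groups did not overlap, and naive B cells express the gene as well. Igfbp4 (-3.40 ± 0.30) and Dapl1 (-3.96 ± 0.50), genes of naive T cells, fell too. All 3 were also lower against the Cat-Tg pre-tx libraries, by -4.68 for Ccr7, -4.45 for Igfbp4 and -6.06 for Dapl1. Of the 16 list members, 7 were lower, 3 were higher and 6 did not pass, with a median of -0.51. The 3 higher genes included Il7r, the IL-7 receptor alpha chain of resting T cells, at 17.4, 44.6 and 43.1 CPM pre-tx and 92.7, 221 and 214 CPM post-tx (2.33 ± 0.42, adjusted p = 0.000906). Il7r averaged 418 CPM in the Cat-Tg pre-tx libraries, against which the post-tx libraries were lower (-1.25, adjusted p = 0.0347).

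Of 26 cytokine genes on the list, 20 were tested, of which 13 were higher, 2 were lower and 5 did not pass, with a median of 3.07 and of 1.47 per unit of T cell transcript. Ifng, the type 1 cytokine interferon gamma, stood at 0.355, 0.996 and 0.256 CPM pre-tx and at 83.6, 66.8 and 78.5 CPM post-tx (7.13 ± 0.52, adjusted p = 2.04e-07). Csf2, which encodes GM-CSF, the myeloid growth factor of pathogenic helper cells, stood at 0, 0.797 and 0.358 CPM and at 89.5, 28.5 and 49.4 CPM (7.13 ± 0.88, adjusted p = 3.51e-05). Both went from near absence to clear expression in every library. Csf1, the macrophage growth factor gene, went from 8.99, 13.8 and 9.93 CPM to 129, 112 and 125 CPM (3.49 ± 0.55, adjusted p = 0.000305). Il2, the T cell growth factor gene, had at most 3 counts in any pre-tx library and 8.89, 4.59 and 2.70 CPM post-tx, at least 30.4-fold higher. Il3 was likewise at or under 3 counts pre-tx and stood at 9.69, 3.37 and 2.55 CPM post-tx, at least 29.3-fold higher. Among the CD4 libraries Il3 exceeded 1 CPM, the level needed for testing, only in the 3 WT post-tx ones. It could thus be tested only because it was high there, and it is among the 13 higher genes.

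Il21, the follicular helper cytokine gene, rose from 0.0591, 0.548 and 4.35 CPM to 18.9, 24.2 and 26.3 CPM (3.80 ± 0.99, adjusted p = 0.0116). Il4 rose from 0.769, 0.349 and 1.18 CPM to 9.01, 7.62 and 9.53 CPM (3.50 ± 0.62), and the regulatory cytokine gene Il10 reached 3.53 to 6.86 CPM (3.74 ± 0.91). Among membrane ligands, Fasl, the death ligand gene, rose from 2.72, 11.8 and 9.83 CPM to 79.6, 68.7 and 90.8 CPM (3.29 ± 0.46, adjusted p = 0.000113), and Tnfsf11 (3.18), Tnfsf14 (2.26) and Tnfsf10 (1.79) passed at lower levels, as did Lif (2.96). The call of Tnfsf14 was lost without WT pre-tx replicate 3 (1.63), and that of Lif without any of the 3 WT pre-tx libraries or WT post-tx replicate 1 (2.42 to 3.18). The summed level of the cytokine list was lower post-tx, at 773 to 996 CPM against 1638 to 2293 CPM, and its 2 lower genes were the lymphotoxins Ltb, from 2106, 2162 and 1489 CPM to 380, 291 and 332 CPM (-2.52 ± 0.40), and Lta (-2.36 ± 0.45), both made by B cells as well as T cells. The tested genes that did not pass were Osm (1.11), Il6 (0.69), Tnf (0.49, adjusted p = 0.453), Tgfb1 (-0.89) and Il17f (-1.08). Il5, Il9, Il13, Il17a, Il22 and Areg were too low to be tested, with Il22 at 1.07, 0 and 2.85 CPM post-tx and the other 5 under 1 CPM in every WT CD4 library.

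Against the Cat-Tg pre-tx libraries the cytokine result was narrower, with 5 of 20 genes higher, 1 lower and a median of 0.92. Ifng (4.71), Csf2 (6.05), Csf1 (4.45), Il3 and Tnfsf14 (1.74) were the 5, of which Il3 could be tested only through its WT post-tx levels. Il21, Il4, Il10 and Fasl averaged 15.6, 8.97, 2.99 and 48.6 CPM in those libraries and did not differ at an adjusted p of 0.05, at 0.57, -0.04, 0.73 and 0.71 on the log2 scale.

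Chemokine ligands were led by Ccl1. Ccl1, the ligand of CCR8, stood at 0.828, 0.399 and 1.02 CPM pre-tx and at 373, 147 and 228 CPM post-tx. Its log2 fold change of 8.38 ± 0.75 (adjusted p = 1.68e-06) was the highest among the genes eligible for naming. Ccl3, an inflammatory chemokine made by activated T cells and macrophages, stood at 2.66, 3.84 and 3.84 CPM and at 130, 68.0 and 110 CPM (4.89 ± 0.46, adjusted p = 2.79e-06). Ccl4, a close relative of Ccl3, stood at 2.54, 7.82 and 5.89 CPM and at 305, 191 and 289 CPM (5.59 ± 0.47, adjusted p = 8.63e-07). In all 3 the lowest post-tx library was far above the highest pre-tx one, and all 3 were also higher against the Cat-Tg pre-tx libraries, by 7.48 for Ccl1, 8.32 for Ccl3 and 6.36 for Ccl4. Ccl5, a chemokine of effector and memory T cells, was at 426, 270 and 270 CPM pre-tx and 406, 245 and 392 CPM post-tx, and the groups overlapped (0.11 ± 0.29, adjusted p = 0.796). It averaged 111 CPM in the Cat-Tg pre-tx libraries, against which it was higher (1.64).

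Over the list, 16 of 20 chemokine ligand genes were tested, of which 7 were higher and 2 were lower, with a median of 1.35 that became -0.23 per unit of T cell transcript and 1.55 against the Cat-Tg pre-tx libraries. Xcl1, the ligand of cross-presenting dendritic cells, rose from 0.237, 2.44 and 3.18 CPM to 22.4, 13 and 15.5 CPM (3.11 ± 0.76). It averaged 9.3 CPM in the Cat-Tg pre-tx libraries and did not pass against them (0.87, adjusted p = 0.384). Per unit of T cell transcript it did not pass either (1.47, adjusted p = 0.111). Ccl24, an eotaxin of macrophages, rose from 10.5, 3.69 and 4.35 CPM to 76.8, 96.9 and 167 CPM (4.20 ± 0.43), and Ccl6, another macrophage chemokine, by 1.44, which turned to -0.09 per unit of T cell transcript. Ccl12 passed at under 1.3 CPM (at least 4.36-fold) and lost the call without WT pre-tx replicate 2 or 3 or WT post-tx replicate 1 or 2 (4.41 to 4.97). The lower genes were the dendritic and B cell chemokine Ccl22 (-5.64) and Cxcl16 (-2.67), of which Cxcl16 lost the call without WT pre-tx replicate 2 (-2.26) or WT post-tx replicate 2 (-2.49). Ccl2, Ccl8, Ccl9, Cxcl9, Cxcl10 and Cxcl11 did not pass, and Ccl7, Ccl17, Cxcl2 and Cx3cl1 were too low to be tested.

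**Figure D4:**
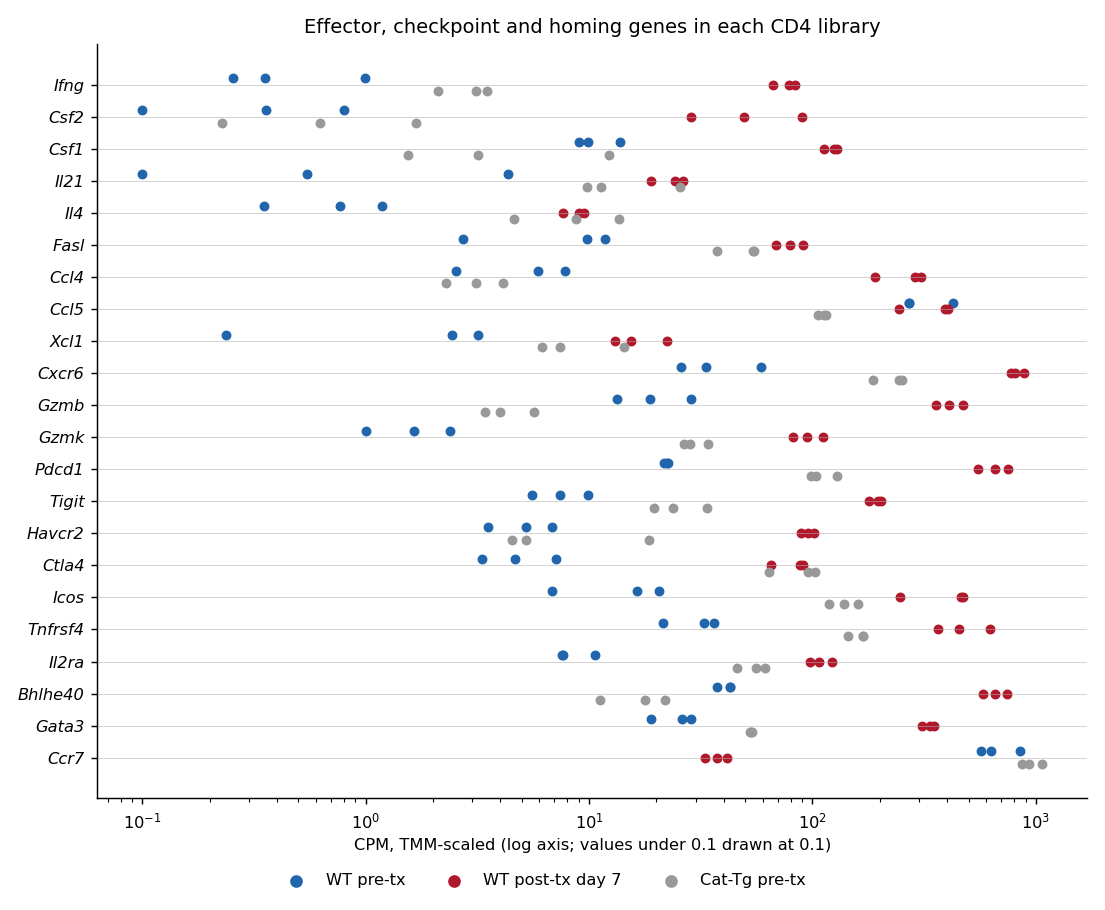
CPM (TMM-scaled, log axis, values under 0.1 drawn at 0.1) of 22 cytokine, chemokine, receptor, granule and homing genes in each WT pre-tx, WT post-tx and Cat-Tg pre-tx CD4 library. Ifng, Csf2, Ccl4, Gzmb and Bhlhe40 post-tx points lie above both pre-tx groups, while Ctla4, Il21 and Il4 post-tx points lie among those of Cat-Tg pre-tx.

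Receptors for chemokines and sphingosine 1-phosphate (S1P), which guide T cells between tissues, changed in both directions. Of 18 chemokine and S1P receptor genes, 7 were higher and 4 were lower, with a median of 0.14 by TMM and -1.39 per unit of T cell transcript. Cxcr6, a receptor of tissue-homing effector cells, stood at 25.7, 58.9 and 33.2 CPM pre-tx and at 771, 803 and 885 CPM post-tx (4.38 ± 0.44, adjusted p = 4.77e-06). Ccr8 (3.67 ± 0.76), the receptor of Ccl1, Ccr2 (3.27 ± 0.37) and Cxcr3 (2.36 ± 0.22), the receptor of interferon-induced chemokines, rose too. Beside Ccr7, the follicular receptor gene Cxcr5 (-2.22 ± 0.25), Ccr6 (-4.53 ± 0.63) and S1pr5 (-5.24 ± 1.04) fell, and B cells express Cxcr5 and Ccr6. Cxcr5 did not differ from the Cat-Tg pre-tx libraries (-0.37, adjusted p = 0.270), in which it averaged 74.6 CPM. Ccr8 (1.36, adjusted p = 0.161) and S1pr5 (-1.92, adjusted p = 0.142) did not pass against those libraries either. Cxcr6, Ccr2, Cxcr3, Ccr6 and Ccr7 did, in the same direction.

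Genes of cytotoxic granules rose in these CD4 libraries, for 10 of the 12 tested and with a median of 2.29, of 0.76 per unit of T cell transcript and of 2.81 against the Cat-Tg pre-tx libraries, where 9 were higher. Gzmb, the granzyme that activates caspases in target cells, stood at 28.6, 18.7 and 13.3 CPM pre-tx and at 358, 410 and 470 CPM post-tx (4.35 ± 0.42, adjusted p = 3.42e-06). Gzmk, a granzyme of effector memory cells, stood at 1.01, 2.39 and 1.64 CPM and at 111, 94.2 and 82.3 CPM (5.82 ± 0.45, adjusted p = 4.28e-07). Serpinb9, the cell's own inhibitor of granzyme B, rose by 4.78 ± 0.52 and Serpinb6b by 5.26 ± 0.50, although serpin genes have close relatives among which reads may be split. Post-tx values exceeded all pre-tx values in each of these 4 genes. NK cells also express granule genes, and of their markers 6 of 10 were lower, with Ncr1 at 0 to 1.19 CPM post-tx, while Klrd1 averaged 22.9 CPM pre-tx and 65.0 CPM post-tx and Klrk1 averaged 15.8 and 32.8 CPM. Their part in the granule result was not tested. Gzmm (0.40) and Lamp1 (-0.34) did not pass.

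Of 23 genes of interleukin and interferon receptors, 12 were higher and 5 were lower, with a median of 1.42 that became -0.13 per unit of T cell transcript and 1.00 against the Cat-Tg pre-tx libraries. Il12rb2, the inducible chain of the IL-12 receptor of type 1 helper cells, stood at 3.02, 6.53 and 4.92 CPM pre-tx and at 104, 144 and 107 CPM post-tx (4.61 ± 0.52, adjusted p = 1.37e-05). Il1rl1, which encodes the IL-33 receptor ST2, rose by 3.04 ± 0.51 and Il18r1 by 2.73 ± 0.44. Il18r1 did not pass against the Cat-Tg pre-tx libraries (1.10, adjusted p = 0.0682), while Il1rl1 (2.88) and Il12rb2 (5.11) did. Ifngr2, the signalling chain of the interferon gamma receptor, fell from 67.3, 115 and 84.2 CPM to 6.63, 11.6 and 4.14 CPM (-3.58 ± 0.40, adjusted p = 1.31e-05). Il4ra (-2.06 ± 0.23) fell as well, and both genes were also lower against the Cat-Tg pre-tx libraries, by -3.16 for Ifngr2 and -1.81 for Il4ra.

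Of 74 cell cycle genes tested, 62 were higher and none was lower by edgeR at an adjusted p of 0.05, against 14.7% and 9.63% of all genes, and 66 had post-tx values entirely above the pre-tx ones, as did 24.7% of all genes. The median was 2.35, and it was 0.77 per unit of T cell transcript, where 31 were higher and 8 were lower, and 2.49 against the Cat-Tg pre-tx libraries, where 63 were higher. Mki67, the gene of the proliferation antigen Ki-67, stood at 14.5, 7.42 and 10.4 CPM pre-tx and at 272, 207 and 217 CPM post-tx (4.43 ± 0.41, adjusted p = 2.05e-06). Rrm2, the regulated subunit of ribonucleotide reductase, stood at 18.7, 11.1 and 13.6 CPM and at 311, 276 and 284 CPM (4.32 ± 0.43, adjusted p = 4.07e-06). The mitotic motor gene Kif11, from 2.01, 2.14 and 7.58 CPM to 67.1, 109 and 59.9 CPM (4.33 ± 0.55), and the spindle assembly gene Tpx2 (4.21 ± 0.41) rose by similar amounts. Post-tx libraries were above all pre-tx libraries in each of these 4 genes, and all 4 were higher against the Cat-Tg pre-tx libraries, by 3.47 to 4.61. Ccnd3 and Cdk4, which act at the start of the cycle and were already abundant pre-tx, did not pass, with 470, 498 and 424 CPM against 738, 452 and 560 CPM for Ccnd3 and a log2 fold change of 0.12 for Cdk4.

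**Figure D5:**
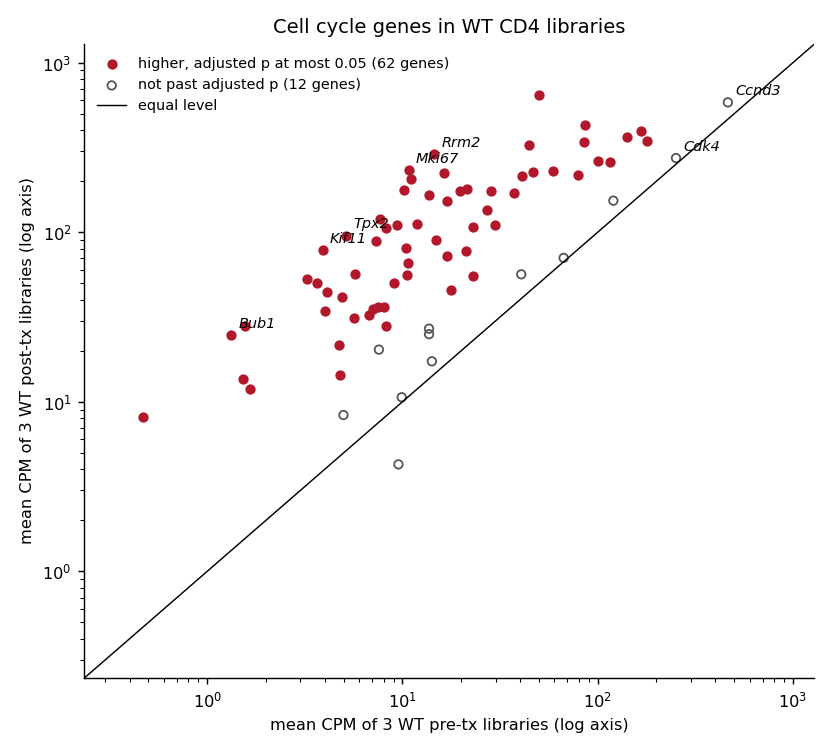
Mean CPM of the 3 WT post-tx libraries (vertical, log axis) against the 3 WT pre-tx libraries (horizontal, log axis) for 74 cell cycle genes, filled where the gene passed at an adjusted p of 0.05. The 62 filled points lie above the line of equal level, and Cdk4 and Ccnd3 lie near it at high levels.

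Promoters of many late cell cycle genes carry a CCAAT box and a cell cycle genes homology region (CHR), and the windows of the 4 cell cycle genes with the largest gains for which RefSeq gave one are shown because these genes moved together. Each is the 250 bases before the first listed start, 5′ to 3′ on the gene's strand (RefSeq, GRCm38.p6), with capitals marking matches on either strand to the CCAAT box (letters CCAAT) and to the CHR (letters TTTGAA, and the variant spelled TTCGAA). They lie at chr7:135716380-135716629 (minus strand) for Mki67, chr19:37376132-37376381 (plus) for Kif11, chr12:24708004-24708253 (plus) for Rrm2 and chr2:127831860-127832109 (minus) for Bub1.
Mki67: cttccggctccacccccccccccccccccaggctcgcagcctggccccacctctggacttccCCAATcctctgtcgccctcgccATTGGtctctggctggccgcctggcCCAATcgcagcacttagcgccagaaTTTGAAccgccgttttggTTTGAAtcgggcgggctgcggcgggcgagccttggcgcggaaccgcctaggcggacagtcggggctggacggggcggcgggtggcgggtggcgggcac
Kif11: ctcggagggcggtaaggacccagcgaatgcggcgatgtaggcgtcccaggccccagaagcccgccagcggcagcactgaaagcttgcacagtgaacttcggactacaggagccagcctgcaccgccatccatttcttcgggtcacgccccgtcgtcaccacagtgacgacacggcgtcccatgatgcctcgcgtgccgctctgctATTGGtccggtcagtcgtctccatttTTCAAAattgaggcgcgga
Rrm2: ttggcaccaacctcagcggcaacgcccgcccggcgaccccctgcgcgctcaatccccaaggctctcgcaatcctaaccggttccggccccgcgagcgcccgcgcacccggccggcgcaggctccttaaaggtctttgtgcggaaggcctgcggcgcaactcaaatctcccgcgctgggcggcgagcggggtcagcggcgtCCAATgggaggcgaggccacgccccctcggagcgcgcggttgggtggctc
Bub1: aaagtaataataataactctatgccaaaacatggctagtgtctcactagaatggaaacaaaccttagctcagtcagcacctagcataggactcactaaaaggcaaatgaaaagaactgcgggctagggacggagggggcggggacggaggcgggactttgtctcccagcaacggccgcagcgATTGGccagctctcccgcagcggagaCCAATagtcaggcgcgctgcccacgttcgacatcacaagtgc
The Mki67 window held matches to both motifs, as did that of Kif11, while those of Rrm2 and Bub1 held the CCAAT box alone. Bub1, a spindle checkpoint kinase gene, rose by 4.20 ± 0.85. Of the 62 higher cell cycle genes, 50 had a window, of which 35 (70%) held a CCAAT box, against 34.5% of 27025 windows. A CHR match was in 16 of the 50 (32%) against 17.4% of all windows, and both were in 15 (30%) against 6.21%. For the whole cell cycle list, called or not, the shares were close to these, at 67.2%, 27.9% and 26.2%. For all tested genes with a window they were 36.3%, 13.8% and 5.22%. These shares are a description of letters in the windows, and no binding was measured.

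Of 22 glycolysis genes, 9 were higher and none was lower, with a median of 0.79 that became -0.82 per unit of T cell transcript and 1.06 against the Cat-Tg pre-tx libraries, where 12 were higher. Hif1a, the oxygen-sensing factor that drives glycolysis in effector cells, stood at 6.50, 24.8 and 13.1 CPM pre-tx and at 223, 279 and 251 CPM post-tx (4.08 ± 0.43, adjusted p = 8.05e-06), and Pfkp, a phosphofructokinase gene, rose by 2.23 ± 0.28. Pkm (0.59) and Eno1 (0.45) did not pass. Of 30 interferon-stimulated genes, 12 were higher and 1 was lower, with a median of 0.62, of -0.92 per unit of T cell transcript and of 0.84 against the Cat-Tg pre-tx libraries. The guanylate-binding protein genes Gbp7, from 15.5, 22.6 and 19.1 CPM to 212, 215 and 202 CPM (3.46 ± 0.28, adjusted p = 5.37e-07), and Gbp4 (2.87 ± 0.33) led, while Irf7 (-0.28) did not pass. Gbp4 did not pass against the Cat-Tg pre-tx libraries (0.81, adjusted p = 0.0698), while Gbp7 did (1.97).

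Of 17 integrin and adhesion genes, 8 were higher and 2 were lower, with a median of 1.08 that became -0.44 per unit of T cell transcript. Itgb1, the beta chain of the VLA integrins, stood at 44.1, 62.4 and 35.6 CPM pre-tx and at 494, 777 and 869 CPM post-tx (3.91 ± 0.36, adjusted p = 2.11e-06), and its partner Itga4 rose by 1.92 ± 0.28. Itgae, the chain that binds E-cadherin, fell by 2.49 ± 0.61, but the groups overlapped. Its lowest pre-tx library (6.55 CPM) was under its highest post-tx one (6.77 CPM). Set against the Cat-Tg pre-tx libraries it did not pass (-0.82, adjusted p = 0.322). Of 16 BCL2 family genes, 6 were higher and 1 was lower, with a median of 0.87 that became -0.66. Pmaip1, a proapoptotic BH3-only gene, rose by 2.94 ± 0.57 and Bmf, another, fell by 2.94 ± 0.71. Of 18 stress and immediate early genes, 3 were higher and 1 was lower, near the 14.7% and 9.63% of all genes, with a median of -0.02. The early response gene Egr2 rose by 2.78 ± 0.51 and Zfp36, which destabilises cytokine messages, fell by 1.72 ± 0.25, while Junb (-0.20) and Ier2 (-0.21) did not pass. Zfp36 did not pass against the Cat-Tg pre-tx libraries (-0.34, adjusted p = 0.331), while Egr2 did (2.26).

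Beyond the lists, 4 of the 8 highest protein-coding DEGs above the naming level were Cd70 (6.75 ± 0.89), the ligand of CD27, Gcg (6.30 ± 1.22), the glucagon gene, AA467197 (5.83 ± 0.67) and Lgals7 (5.77 ± 1.15), which encodes galectin-7. Ccl1, Ifng, Csf2 and Gzmk were the others. Cd70 stood at 0.296, 0.0996 and 0.0512 CPM pre-tx and at 29.7, 9.63 and 8.83 CPM post-tx, Gcg at 0.0591, 0.498 and 0 CPM and at 22.9, 7.06 and 15.7 CPM, and AA467197 at 0.473, 0.847 and 0.154 CPM and at 20.8, 25.4 and 38.7 CPM. None overlapped between the groups.

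The change of the WT libraries was last tested against that of the Cat-Tg CD4 libraries, in which donor cells carried the beta-catenin transgene and which share no sample with it. The 2 changes differed for 2514 genes at an adjusted p of at most 0.05 and a log2 difference of at least 2 (14.6%), with the WT change higher for 1697 (9.84%) and lower for 817 (4.74%). The share with the higher WT change was 67.5% by TMM, 50% with DESeq2 size factors and 2.72% per unit of T cell transcript. The count fell to 1671 without WT pre-tx replicate 1, when the share was 41.5%, and to 1657 without Cat-Tg pre-tx replicate 2. The share also fell under 50% without Cat-Tg pre-tx replicate 1 (38.2%) or WT pre-tx replicate 3 (43.6%), and in a fit of protein-coding genes alone, where 809 were higher and 977 were lower (45.3%). Since the WT pre-tx libraries held more B cell, erythroid and CD8 transcripts than the Cat-Tg ones, with B cell sums of 21563 to 24964 CPM against 4334 to 6141 CPM, differences in change and differences in what the pre-tx libraries held cannot be told apart. For erythroid genes, the WT change was lower by adjusted p for 9 of 10, as it was for 7.25% of all genes, with medians of -3.58 in WT and 3.15 in Cat-Tg libraries. In Cat-Tg CD4 libraries alone, 16.2% of all genes were higher post-tx and 29.0% were lower. The Y-linked Eif2s3y averaged 72.3 CPM in Cat-Tg pre-tx and 0.229 CPM in Cat-Tg post-tx libraries. In WT libraries, 1 of 4 sex-linked genes tested was lower post-tx, Kdm5d (-1.68 ± 0.39, adjusted p = 0.00544). The Cat-Tg change thus also crosses a difference in Y-linked transcripts, whose part in these results was not tested. Cell cycle genes moved in the same direction in both, with medians of 2.35 and 2.04, and 16 of 74 differed, by adjusted p alone, as did 21.3% of all genes. For cytokines the medians were 3.07 and 0.21, and 8 of 20 differed. Ccr7 changed by -4.19 in WT and -3.94 in Cat-Tg libraries (difference -0.25, adjusted p = 0.571) and Gata3 by 3.75 and 3.35 (difference 0.40, adjusted p = 0.532).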

How the data were processed

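RNA of 24 libraries was measured by full-length RNA-seq, of which the 12 CD4 libraries entered the fit. The authors deposited estimated counts and TPM (a level corrected for transcript length) per transcript, made with kallisto 0.46.2 per the labels. These also name mm9, while the release of the index is not given in the sources used here. Of 117497 transcripts, 116428 were matched to GENCODE M21 gene names, which held 99.64% to 99.76% of the counts. Estimated counts were summed to genes and rounded, so that reads of close paralogs remain as kallisto split them. Genes with over 1 CPM in at least 3 of 12 libraries were tested with edgeR 4.0.16 (robust quasi-likelihood F test, TMM, R 4.3.3), and p-values were adjusted by Benjamini-Hochberg over all 17253 genes. Standard errors were obtained from the F statistic of each log2 fold change. DEGs passed both an adjusted p of 0.05 and a log2 fold change of 2 in either direction, and members of lists were counted by adjusted p alone. A floor of 3 counts per library was used for fold bounds, which cover counting error only.

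Genes were named by a rule: the 6 markers of the comparison, the 8 highest and 8 lowest protein-coding DEGs with no overlap between groups and a mean of 10 CPM or more in one of them, up to 4 called members of each list in each direction with the largest change, up to 2 abundant members that did not pass, and every coreceptor, pan T cell, cytokine and chemokine ligand gene. Bub1 was named for its promoter, and some genes that the rule names are not reported here. The members and lists were chosen with earlier results of these data known. The comparison with Cat-Tg pre-tx libraries was chosen after seeing the data. The fit was repeated with DESeq2 1.42.0 and with its size factors, limma-voom (limma 3.58.1), scaling to T cell genes, other filters, length-scaled counts, thinned counts, protein-coding genes alone, the 6 WT libraries alone, a replicate block and leaving out each library. By the study's methods, each group held 3 mice, and CD4 and CD8 cells were sorted from each mouse. Counts were simulated for WT CD4 post-tx against pre-tx over 17253 genes, with changes placed in well-counted genes and the same dispersion for all genes. That dispersion was set, not estimated from these data, and no shift in cell makeup was simulated. The shares recovered therefore do not give the power of the real comparison. Of genes changed by 4, 2 and 1 on the log2 scale, 100%, 59.7% and 5.97% were recovered. Recovery meant the right direction at an adjusted p of at most 0.05, with no fold threshold.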

Additional observations from a re-analysis of the deposited data

Results flagged for a closer look

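The WT and Cat-Tg changes differed for 2514 genes by the test of the difference itself, and 444 genes had opposite changes that each passed, of which 267 were higher in WT and lower in Cat-Tg libraries and 177 the reverse. Among the genes named above, 17 had such opposite changes, given here as the WT change minus the Cat-Tg change on the log2 scale. T cell genes were higher in WT and lower in Cat-Tg libraries, with differences of 4.17 for Cd3g, 3.65 for Trbc1, 2.86 for Cd3d, 2.67 for Trbc2, 2.58 for Cd247, 2.27 for Cd2 and 2.17 for Trac. Ctla4 (5.16), Il7r (3.93) and Xcl1 (6.52) differed in the same direction. Erythroid and myeloid genes differed the other way, with -8.28 for Alas2, -7.99 for Hba-a1, -7.59 for Hba-a2, -4.84 for Spi1 and -3.73 for Irf8, as did Cd38 (-2.2) and Ly6c2 (-2.16). B cell transcripts summed to 21563 to 24964 CPM in WT pre-tx and to 4334 to 6141 CPM in Cat-Tg pre-tx libraries. For pan T cell transcripts the sums were 5123 to 6799 CPM and 15241 to 18657 CPM. Cat-Tg pre-tx and post-tx libraries also differed in the Y-linked Eif2s3y, which averaged 72.3 and 0.229 CPM. The part of these contents in the differences above was not tested.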

How the results depend on the processing

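By DESeq2 there were 2130 DEGs (691 higher, 1439 lower) and by limma-voom 2202, against 1719 by edgeR (731 higher, 988 lower). Leaving out 1 library gave 1274 to 2063 DEGs, 2542 to 4853 genes past the adjusted p and 1657 to 2501 genes whose WT and Cat-Tg changes differed. A fold threshold of 1 gave 3816 DEGs. Per unit of T cell transcript the counts were 6121, 10246 and 6335, and the WT against Cat-Tg difference with a threshold of 1 gave 3652 genes. Deviations of same-numbered WT pre-tx and post-tx libraries from their group means had r = 0.0885, -0.227 and -0.0942. For differently numbered ones r ran from -0.163 to 0.265. With 3 libraries per group these values cannot show whether the numbers paired the samples. A replicate block gave 1623 DEGs, 4012 genes past the adjusted p and 2164 differing genes.

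Of 123 named genes past the adjusted p, 109 kept their call and none changed direction in any other fit beside those scaled to T cell genes or set against Cat-Tg pre-tx libraries, and 111 kept it whichever library was left out. Bcl11b, Cd6, Ccl12, Ly6c1 and Ly6c2 also lost their calls in further fits, among them Ccl12 with the replicate block (5.24). Il21 lost its call with no filter (3.78) and Tnfsf11 in a fit of the 6 WT libraries alone (3.11). Per unit of T cell transcript, 55 of 81 higher genes still passed, 14 had negative values and all 42 lower genes still passed. Those 14 were Bcl11b (-0.09), Ccl6 (-0.09), Cd2 (-0.50), Cd3d (-0.17), Cd3e (-0.29), Cd5 (-0.42), Cd6 (-0.64), Lat (-0.08), Lck (-0.46), Thy1 (-0.25), Trac (-0.01), Trbc1 (-0.05), Trbc2 (-0.56) and Zap70 (-0.03). Of genes not past the test, the value turned negative for Ccl5 (-1.47), Ccnd3 (-1.25), Cdk4 (-1.43), Cxcl9 (-1.06), Cxcl10 (-0.40), Cxcl11 (-0.36), Eno1 (-1.11), Gzmm (-1.19), Il6 (-0.84), Klrk1 (-0.45), Osm (-0.52), Pkm (-0.97), Tnf (-1.13) and Zbtb7b (-0.74).

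On that scale the medians of 9 lists turned negative, at -0.21 for pan T cell, -0.66 for neutrophil, -0.23 for chemokine ligands, -1.39 for chemokine and S1P receptors, -0.13 for interleukin and interferon receptors, -0.82 for glycolysis, -0.92 for interferon-stimulated, -0.44 for integrins and -0.66 for BCL2 family genes. The stress list median, near 0, was 0.03 by limma-voom, 0.02 with no filter, 0.05 with at least 10 counts, 0.08 with length-scaled counts, 0.01 with the block and -0.39 to 0.08 without 1 library. For protein-coding genes alone the values were -0.05 for chemokine and S1P receptors (-0.23 to 0.32 without 1 library), -0.09 for Ccl5 (-0.18 to 0.33) and -0.08 for Cdk4 (-0.14 to 0.21), and C1qb ran from -0.64 to 0.01 without 1 library.

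Against the Cat-Tg pre-tx libraries, 50 of 81 higher genes and 26 of 42 lower genes kept their call. The direction turned for Cd2 (-0.62), Cd3d (-0.74), Cd3g (-1.11), Cd5 (-0.49), Cd6 (-0.52), Ctla4 (-0.11), Il4 (-0.04), Il7r (-1.25), Trbc1 (-1.35), Trbc2 (-1.10), Vcam1 (-0.58), Cd38 (0.06), Irf8 (0.75) and Ly6c2 (1.61) among called genes. It also turned for Ccl2 (2.40), Cxcl9 (-0.23), Ier2 (0.35), Irf7 (1.03), Junb (0.60), Klrk1 (-0.16) and Tgfb1 (0.20), and for the stress list median (1.07). The cause of these changes was not tested. Depth limits genes under 1 CPM, which were not tested.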
